A study of Homo sapiens with 8 samples.

Results

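The 10 genes described here encode proteins that bind AU-rich elements in messenger RNA, or that bring a deadenylase to it: ZFP36, ZFP36L1, ZFP36L2, ELAVL1, ELAVL2, ELAVL3, ELAVL4, KHSRP, BTG1 and TOB1. They were taken by symbol, and all 10 were found among the 58787 gene identifiers of the count table. Polyadenylated RNA was sequenced from IMR32, an established human neuroblastoma line with amplified MYCN, whose genotype is given as WT and whose cell type is given as neuroblast. After 48 h of adherence the cells received fresh medium with CR31B at its IC50, a concentration whose value the labels do not state, or with 0.1% DMSO as the vehicle, and RNA was taken at 6 h. Each group had 4 libraries, described by the submitters as biological replicates. CR31B is a rocaglate, a class of compounds that clamp the RNA helicase eIF4A on RNA and so impede translation initiation. Replicate 1 of each group was sequenced paired-end and replicates 2 to 4 single-end.

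AU-rich elements are stretches of A and U in the 3′ untranslated region (3′ UTR) that make many short-lived mRNAs, such as those of early response genes and cytokines, decay quickly. Proteins of the ZFP36 family bind them and recruit the CCR4-NOT deadenylase, which shortens the poly(A) tail, and KHSRP also favours decay. The ELAVL (Hu) proteins bind overlapping sites and mostly stabilise the mRNA or favour its translation: ELAVL1 (HuR) is found in nearly all cells, and ELAVL2, ELAVL3 and ELAVL4 (HuB, HuC and HuD) mark neurons and neuroblastoma. BTG1 and TOB1 are antiproliferative proteins that bind the CNOT7 and CNOT8 catalytic subunits of CCR4-NOT and so tie it to mRNAs. The counts report the mRNAs of these proteins, not their amount or activity.

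Some of these mRNAs hold AU-rich elements themselves, and the sites are shown because they are of the kind that the encoded proteins bind. The nonamer TTATTTATT, searched on the mRNA strand only, is a core form of the element and contains the pentamer ATTTA. In the GENCODE release 29 transcripts chosen for each gene (GRCh38), 5 of the 10 genes held the nonamer in the 3′ UTR, once each, and these are given 5′ to 3′ with the nonamer in capitals and 10 flanking bases on either side.
ZFP36, chr19:39409196-39409224, plus strand: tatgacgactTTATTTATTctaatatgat
ZFP36L1, chr14:68788077-68788105, minus strand: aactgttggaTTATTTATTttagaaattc
ZFP36L2, chr2:43223448-43223476, minus strand: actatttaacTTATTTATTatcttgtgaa
ELAVL1, chr19:7961828-7961856, minus strand: atttatgtatTTATTTATTgaagtgtgaa
ELAVL3, chr19:11451558-11451586, minus strand: cttcatcctgTTATTTATTcggaaggttt
All 3 ZFP36 family genes held a nonamer, in 3′ UTRs of 713, 1871 and 1917 bases for ZFP36, ZFP36L1 and ZFP36L2. Among tested genes with a 3′ UTR of 0.8 to 1.25 times that length, 4.79%, 9.27% and 9.79% held one. For ELAVL1, with a 3′ UTR of 4904 bases, the share among genes of like length was 23.6%, and for ELAVL3, with 3200 bases, 14.4%. The pentamer was found 16 times in ELAVL2 (2450 bases), 13 times in ELAVL1, 9 times in ELAVL3, 8 times in ZFP36L1, 5 times each in ZFP36, ZFP36L2 and BTG1 (3802 bases), and 4 times in TOB1 (757 bases). It was found 0 times in KHSRP (764 bases). Among genes of like 3′ UTR length the median was 5 for ELAVL2, 11 for ELAVL1 and 7 for ELAVL3. The median was 4 for ZFP36L1 and for ZFP36L2, 1 for ZFP36, TOB1 and KHSRP, and 8 for BTG1. BTG1 and KHSRP thus held fewer than the median gene of like length, and ELAVL1, ELAVL3 and ZFP36L2 were close to it. The 3′ UTR of the ELAVL4 transcript was short, at 224 bases, and held neither motif, but 3 of the 7 coding transcripts of ELAVL4 held the nonamer, with a longest 3′ UTR of 2608 bases. A match to these letters is a description of the sequence and not evidence that a protein binds there.

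The libraries held 43687828 to 64715535 counts. Of 11 adrenergic neuroblastoma markers, all 11 reached 1 CPM (a count scaled to the size of its library), and their summed level was 5219 to 6966 CPM. The summed markers of mesenchymal, Schwann, endothelial, blood, astrocyte and epithelial cells reached at most 32.3 CPM per cell type. The libraries of replicate 1 stood apart. Among the genes called in replicates 2 to 4, 98.9% differed in the opposite direction between the library labelled CR31B 1 and the library labelled DMSO 1. By the mean chi-square per gene between libraries, which is smaller for more similar libraries, CR31B 1 was at 9.46, 17.3 and 14.8 from DMSO 2, 3 and 4 and at 94.4 to 144 from CR31B 2 to 4. DMSO 1 was at 10.1, 20.7 and 8.01 from CR31B 2, 3 and 4 and at 88.8 to 109 from DMSO 2 to 4. Each replicate 1 library thus went against its label, as an exchange of these 2 labels would also give, and whether they were exchanged cannot be told from these files. No label was changed, so each value of replicate 1 or of the 8 libraries holds only under the labels as given. Directions given below follow the labels of replicates 2 to 4, and replicate 1, with 1 library per group and therefore no test of its own, is given beside them. Replicate 1, the paired-end layout and an exchange of labels cannot be told apart.

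To compare levels between genes, CPM was divided by the length in kilobases of all annotated exons of the gene, from all its transcripts together. Which transcripts the cells held was not examined, so the levels and their order depend on this choice of length. On this scale KHSRP was the highest of the 10 mRNAs, with a median of 94.0 CPM per kilobase over the 8 libraries and a range of 82.1 to 101. In CPM not divided by length, ELAVL4 was above KHSRP in some libraries and below it in others. Examples are CR31B 3 (515 against 375 CPM) and DMSO 2 (377 against 446 CPM). The neuronal Hu genes followed, with medians of 70.4 for ELAVL2, 62.6 for ELAVL4 and 54.0 CPM per kilobase for ELAVL3, and ELAVL1, the widely expressed family member, was lower at 29.9. The ranges of ELAVL2, ELAVL4 and ELAVL3 overlapped, so their order among themselves is not settled by these libraries.

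ZFP36L2 and TOB1 were next, with medians of 22.3 and 21.2 CPM per kilobase and overlapping ranges, and BTG1 had 12.1. ZFP36L1 and ZFP36 were the lowest, at 1.91 and 1.03 CPM per kilobase, and their ranges overlapped. In all 8 libraries every value of KHSRP lay above every value of ELAVL2, and the same held for ELAVL3 over ELAVL1, ELAVL1 over ZFP36L2, TOB1 over BTG1 and BTG1 over ZFP36L1. The mRNA of the ZFP36 family in these cells was thus mostly that of ZFP36L2, while ZFP36, the member named tristetraprolin, was read by 62 to 159 counts per library.

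**Figure D1:**
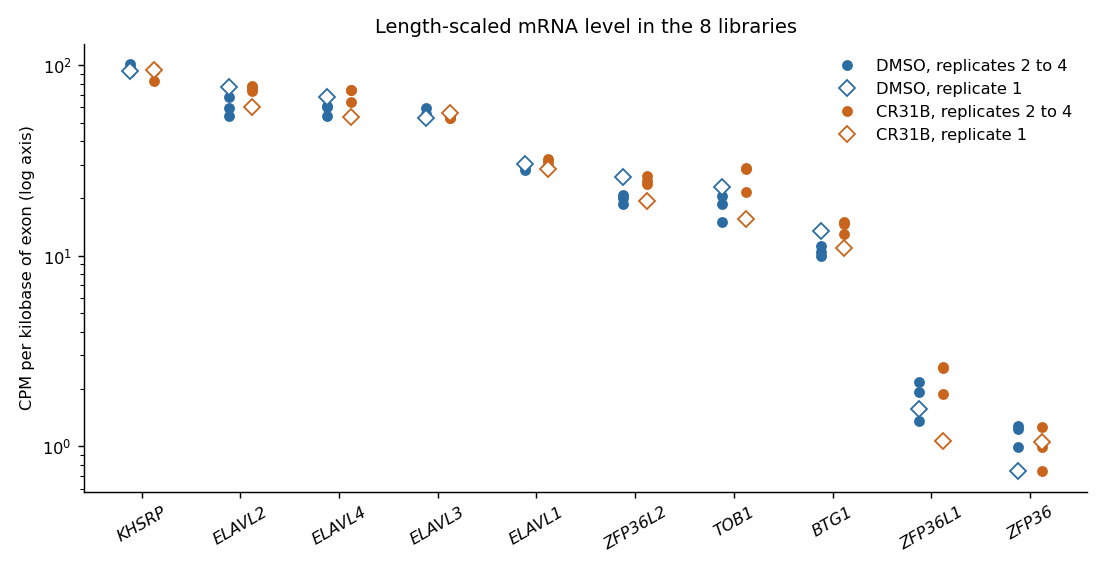
Length-scaled level of the 10 mRNAs (vertical axis, CPM per kilobase of exon, log scale) in each of the 8 libraries, with genes ordered by their median. Blue marks DMSO and orange CR31B, filled circles replicates 2 to 4 and open diamonds replicate 1. The levels run from 94.0 for KHSRP to 1.03 for ZFP36.

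With CR31B, 5 of the 10 mRNAs rose in replicates 2 to 4: both adaptors, TOB1 by 45.6% of its mean CPM and BTG1 by 34.4%, then ZFP36L2 by 25.2%, ELAVL2 by 24.8% and ELAVL4 by 21.2%. None of the 10 fell at an adjusted p under 0.05, in edgeR's quasi-likelihood test with Benjamini-Hochberg adjustment over 16696 genes. In that comparison 41.3% of all tested genes passed, 23.8% higher and 17.6% lower, so passing the test was common. The share that was higher also differed with 3′ UTR length. Among genes without the nonamer it was 19.0% for 3′ UTRs under 500 bases and 41.2% for those of 4000 bases or more. In RNA from whole cultures, a change in the make-up of the cells and a change of mRNA per cell cannot be told apart. CPM is scaled to the library, so a rise here is relative to the other mRNAs and does not give the amount per cell. The median log2 fold change was 0.30 over the 10 genes and -0.007 over all tested genes. With a correction for GC content and transcript length, 3 of the 10 and 6713 of 16696 genes were called in replicates 2 to 4. With all 8 libraries and sequencing layout as a term, 0 of the 10 and 0% of 16518 genes passed. At an unadjusted p under 0.05 there were 0 of the 10 and 205 of all genes in that fit.

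The gene with the largest change was TOB1 (ENSG00000141232, chr17:50862223-50867978, minus strand), in GRCh38 coordinates of GENCODE release 29, as for all genes here. Its normalised read count was 54.7, 73.2 and 72.0 CPM in the libraries labelled CR31B 2, 3 and 4, and 38.0, 47.1 and 52.2 CPM in DMSO 2, 3 and 4. In replicate 1 it was 39.2 CPM with CR31B and 58.0 CPM with DMSO. Each CR31B library of replicates 2 to 4 lay above all 3 DMSO libraries, the closest pair being CR31B 2 and DMSO 4, and replicate 1 was turned around. The means were 66.6 ± 10.3 against 45.8 ± 7.20 CPM (SD, n = 3), a log2 fold change of 0.54 ± 0.13 (SE, adjusted p = 0.0062, edgeR). In the 8 libraries the log2 fold change was 0.27 and the adjusted p 0.707.

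The other adaptor gene, BTG1 (ENSG00000133639, chr12:92140278-92145897, minus strand), had 63.0, 71.3 and 72.6 CPM in CR31B 2, 3 and 4, and 54.9, 48.4 and 50.6 CPM in DMSO 2, 3 and 4. The libraries of replicate 1 had 53.2 CPM with CR31B and 65.8 CPM with DMSO. The groups did not overlap in replicates 2 to 4, where the rise was smallest in pair 2, and replicate 1 was again opposite. The means were 69.0 ± 5.21 and 51.3 ± 3.32 CPM (SD, n = 3), with a log2 fold change of 0.43 ± 0.070 (SE, adjusted p = 0.000724, edgeR).

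The BTG1 and TOB1 genes overlap others in the annotation. The strand setting of the counting is not stated beyond the word reverse in the name of the deposited counts. TOB1-AS1, on the opposite strand of TOB1, had 0.415 to 0.932 CPM, at most 1.92% of the level of TOB1 in a library. The neighbours of BTG1, LINC01619 and AC025164.1, had at most 0.243 CPM each. Counts assigned to these neighbours were therefore few beside those of the adaptors.

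ZFP36L2 (ENSG00000152518, chr2:43222402-43226609, minus strand) gave most of the ZFP36 family mRNA here. It had 91.1, 87.9 and 96.4 CPM in CR31B 2, 3 and 4 and 69.1, 74.1 and 76.6 CPM in DMSO 2, 3 and 4. It had 71.4 CPM in CR31B 1 and 95.7 CPM in DMSO 1. The 3 CR31B libraries lay close together and above the DMSO libraries, and replicate 1 showed nearly the reverse of those levels. The means of 91.8 ± 4.28 and 73.3 ± 3.84 CPM (SD, n = 3) gave a log2 fold change of 0.33 ± 0.057 (SE, adjusted p = 0.00119, edgeR).

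ZFP36L1 (ENSG00000185650, chr14:68787660-68796253, minus strand) had 9.74, 13.4 and 13.3 CPM in CR31B 2, 3 and 4 and 7.02, 9.97 and 11.2 CPM in DMSO 2, 3 and 4. In replicate 1 the values were 5.49 CPM with CR31B and 8.12 CPM with DMSO. CR31B 2 lay below both DMSO 3 and DMSO 4, so the groups overlapped, but within each of pairs 2 to 4 the CR31B library was higher, by 0.47, 0.43 and 0.25 on the log2 scale. Its log2 fold change was 0.38 ± 0.17 (SE, adjusted p = 0.105, edgeR). With the replicate number as a block it was called, at 0.38 and an adjusted p of 0.00147 (edgeR), which made 6 of the 10 genes called higher. In that fit 4686 of 16696 tested genes were called higher.

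Without CR31B replicate 2, without DMSO replicate 4 or without pair 2, ZFP36L1 also passed, with adjusted p of 0.0277, 0.0469 and 0.0337 (edgeR). The same held with no filter on low counts (0.00272, edgeR) and with GC and length offsets plus the block (0.000611, edgeR). With DESeq2 its adjusted p was 0.048. In all it was called in 7 of 19 alternatives. ZFP36 (ENSG00000128016, chr19:39406813-39409412, plus strand) had 2.00, 1.48 and 2.53 CPM in CR31B 2, 3 and 4 and 2.57, 2.00 and 2.49 CPM in DMSO 2, 3 and 4, with 2.13 and 1.49 CPM in replicate 1. Its log2 fold change was -0.24 ± 0.20 (SE, adjusted p = 0.371, edgeR). The groups overlapped for ZFP36, and the log2 fold change was about as large as its error.

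As a share of the summed length-scaled level of the 3 family members, ZFP36 made up 3.62%, 2.72% and 4.21% in CR31B 2, 3 and 4 and 5.99%, 4.33% and 5.14% in DMSO 2, 3 and 4. It made up 4.93% in CR31B 1 and 2.62% in DMSO 1. The means of replicates 2 to 4 were 3.52 ± 0.75% and 5.15 ± 0.83% (SD, n = 3), a difference of -1.63 percentage points with an exact two-sided permutation p of 0.1, which is the smallest that 3 against 3 libraries allow. Over all 8 libraries the difference was -0.65 points (exact permutation p = 0.429, where 4 against 4 can reach 0.0286). The share did not overlap between the groups in replicates 2 to 4 and was turned around in replicate 1.

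Of the Hu genes, ELAVL2 (ENSG00000107105, chr9:23690104-23826337, minus strand) had 389, 375 and 397 CPM in CR31B 2, 3 and 4 and 349, 277 and 305 CPM in DMSO 2, 3 and 4, with 310.3 CPM in CR31B 1 and 392 CPM in DMSO 1. The CR31B values of replicates 2 to 4 were tightly grouped and all above the DMSO values, of which DMSO 2 was the highest. The log2 fold change was 0.32 ± 0.077 (SE, means 387 ± 11.2 and 310.4 ± 36.1 CPM, SD, n = 3), with an adjusted p of 0.00689 (edgeR).

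ELAVL4 (ENSG00000162374, chr1:50048014-50203786, plus strand), which encodes HuD, had 449, 515 and 515 CPM in CR31B 2, 3 and 4 and 377, 420.3 and 424 CPM in DMSO 2, 3 and 4. Replicate 1 had 373 CPM with CR31B and 475 CPM with DMSO. The groups of replicates 2 to 4 did not overlap and pair 2 was the lowest in both, while replicate 1 ran the other way. Means of 493 ± 38.5 and 407 ± 26.2 CPM (SD, n = 3) gave a log2 fold change of 0.28 ± 0.070 (SE, adjusted p = 0.00903, edgeR).

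The calls of ELAVL2 and ELAVL4 depended on the correction for GC content and transcript length. With those offsets the log2 fold changes were 0.17 and 0.11 and the adjusted p were 0.0953 and 0.23 (edgeR). With the offsets and the replicate block together they were 0.18 and 0.11, with adjusted p of 0.00902 and 0.0229. Without pair 4 neither passed (adjusted p of 0.0928 and 0.0696), and ELAVL4 also missed the threshold with upper quartile scaling, at 0.18 and an adjusted p of 0.0535. TOB1, BTG1 and ZFP36L2 were called in all 19 alternatives run on the single-end libraries.

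The other Hu genes and KHSRP did not pass the test. ELAVL1 (ENSG00000066044, chr19:7958579-8005659, minus strand) had 224, 206 and 215 CPM in CR31B 2, 3 and 4 and 203, 195 and 211 CPM in DMSO 2, 3 and 4, with a log2 fold change of 0.083 ± 0.053 (SE, adjusted p = 0.239, edgeR). ELAVL3 (ENSG00000196361, chr19:11451326-11481046, minus strand) had 262, 251 and 252 CPM with CR31B and 284, 264 and 251 CPM with DMSO in the same order, with a log2 fold change of -0.061 ± 0.056 (SE, adjusted p = 0.418, edgeR). The groups overlapped for both genes. In replicate 1, ELAVL1 had 198 CPM with CR31B and 211 CPM with DMSO, and ELAVL3 had 268 and 250.04 CPM.

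KHSRP (ENSG00000088247, chr19:6413348-6424794, minus strand), whose protein favours decay, had 439, 375 and 427 CPM in CR31B 2, 3 and 4 and 446, 419 and 461 CPM in DMSO 2, 3 and 4, with 431 and 424 CPM in replicate 1. Its log2 fold change was -0.094 ± 0.068 (SE, adjusted p = 0.3, edgeR), and the groups overlapped. It was called lower under upper quartile scaling and total count scaling (adjusted p of 0.0198 and 0.0268), and ELAVL3 under upper quartile scaling (0.0362). These scalings shifted the median log2 fold change of all genes by -0.095 and -0.078, and the share of the calls that were higher went from 57.5% to 40.0% with upper quartile and 43.1% with total count scaling.

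The neuronal genes ELAVL2, ELAVL3 and ELAVL4 together made up 85.1% to 87.1% of the length-scaled Hu mRNA in the 8 libraries. In replicates 2 to 4 the share was 86.6 ± 0.67% with CR31B and 85.7 ± 0.56% with DMSO (SD, n = 3), a difference of 0.92 points with an exact two-sided permutation p of 0.2. Over the 8 libraries the difference was 0.44 points (exact permutation p = 0.429). The 11 adrenergic markers, of which 4 were called higher and 4 lower, summed to 6318 to 6966 CPM with CR31B and 5219 to 5485 CPM with DMSO in replicates 2 to 4, and their part in the values of the Hu genes was not tested. The difference in the neuronal share was of the size of the spread between libraries, although ELAVL2 and ELAVL4 were called higher and ELAVL1 was not.

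**Figure D2:**
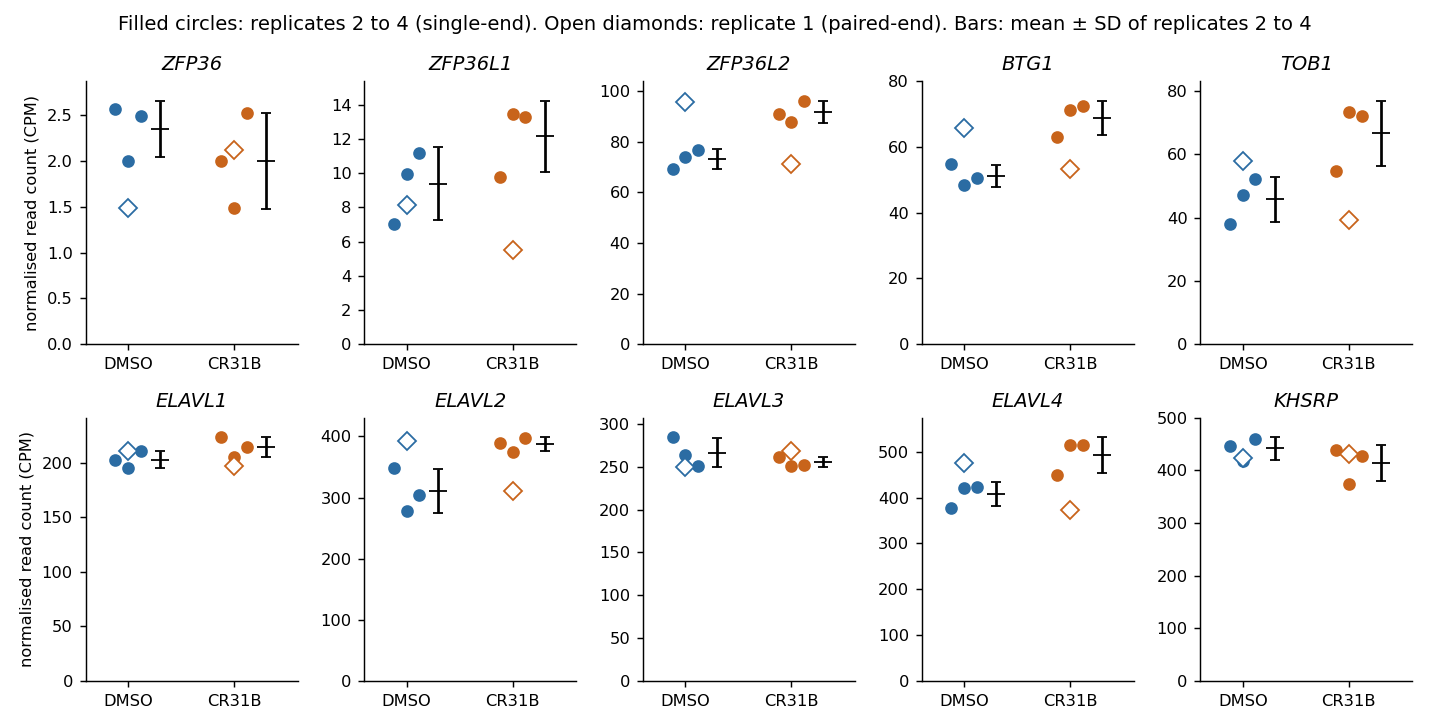
Normalised read count (CPM, vertical axes from 0) of each of the 10 mRNAs by group. Filled circles are replicates 2 to 4, open diamonds replicate 1, and bars the mean ± SD of replicates 2 to 4. For ZFP36L2, BTG1, TOB1, ELAVL2 and ELAVL4 the filled CR31B circles lie above the filled DMSO circles and the diamonds are reversed.

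Across the 10 mRNAs, 5 had CR31B values wholly above DMSO values in replicates 2 to 4, against 27.7% of all tested genes, and these were the 5 that were called. Over all 8 libraries 0 of the 10 had groups that did not overlap. The share of all tested genes was not counted there, so this is no result about the 10 genes. For each of the 5 called mRNAs, DMSO 1 lay above all other DMSO libraries and CR31B 1 below all other CR31B libraries. How many of all called genes show this order was not counted.

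The difference within pair 1 had the opposite sign to the log2 fold change of replicates 2 to 4 for all 10 genes. The same held for 98.9% of all genes called in replicates 2 to 4, so it is not particular to the 10. For TOB1 it was -0.57 in pair 1 and 0.53, 0.64 and 0.46 in pairs 2 to 4 (log2 CPM, CR31B minus DMSO). For BTG1 the differences were -0.31 in pair 1 and 0.20, 0.56 and 0.52 in pairs 2 to 4. The pair 1 difference of the adaptors was thus similar in size to that of the other pairs and of opposite sign.

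ZFP36L2 differed by -0.42 in pair 1 and by 0.40, 0.25 and 0.33 in pairs 2 to 4. The Hu genes ELAVL2 and ELAVL4 differed by -0.34 and -0.35 in pair 1, by 0.16 and 0.25 in pair 2, by 0.44 and 0.29 in pair 3 and by 0.38 and 0.28 in pair 4. For the 5 called mRNAs every one of pairs 2 to 4 was above 0 and pair 1 below it.

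The difference between pair 1 and the other pairs was tested as the interaction of treatment and layout in edgeR, which 42.5% of all genes passed. The same 5 of the 10 genes passed, with interaction terms of -1.11 for TOB1 (adjusted p = 0.00602), -0.75 for ZFP36L2 (0.000522), -0.73 for BTG1 (0.0019), -0.66 for ELAVL2 (0.00607) and -0.63 for ELAVL4 (0.00477), on the log2 scale. ZFP36L1 had a term of -0.94 with an adjusted p of 0.0593, and ZFP36 one of 0.76 with an adjusted p of 0.171. With GC and length offsets the terms of ELAVL2 and ELAVL4 were -0.34 and -0.28, with adjusted p of 0.0992 and 0.124, and ZFP36L1 passed (0.0445).

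**Figure D3:**
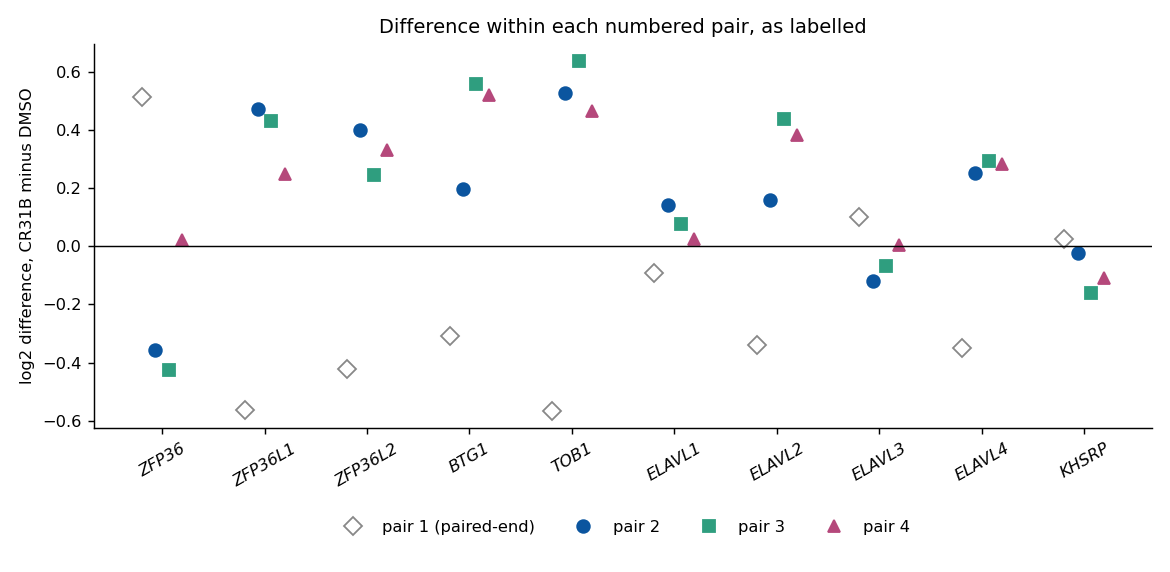
Difference within each numbered pair (vertical axis, log2 CPM, CR31B minus DMSO as labelled) for the 10 mRNAs. Open diamonds are pair 1 and filled symbols pairs 2 to 4. For TOB1 the filled symbols lie between 0.46 and 0.64 and the diamond at -0.57.

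By the root mean square difference of centred log2 CPM over the 8 libraries, the mRNAs most like TOB1 among 10797 genes were PACSIN3 (0.0657), ARHGAP26 (0.0728) and DOK6 (0.077), where the median gene was at 0.341. Those most like ELAVL4 were FEV (0.0281), EXOC8 (0.0341) and TRIM3 (0.0358), with a median of 0.211. Both sets shared the higher level in CR31B 2 to 4 and the reversed replicate 1, which many genes of these libraries show. This follows from their choice by likeness over the same 8 libraries and is no separate result.

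Deadenylases were then examined, among them CCR4-NOT, to which BTG1, TOB1 and the ZFP36 proteins connect. The list used held 15 genes of deadenylases and of proteins associated with them, not all of them catalytic. PAN2, PAN3, PARN and NOCT are not subunits of CCR4-NOT, so the counts of this list are not those of that complex alone. Of these 15, all tested, 10 rose with CR31B in replicates 2 to 4 and 0 fell. The median log2 fold change was 0.30, where 23.8% of all tested genes rose and 17.6% fell. With the replicate block 12 were higher and 1 lower, CNOT2 (adjusted p = 0.0345, edgeR) and PAN2 (0.0163) being added to the higher and CNOT7 to the lower. In that fit 4686 of 16696 tested genes were higher and 3854 lower. The shares of 23.8% and 17.6% are the background for the main count of each list below. Of all tested genes, 3010 were higher and 4509 lower with upper quartile scaling. The numbers were 3181 and 4194 with total count scaling and 3440 and 3273 with GC and length offsets. With a filter at 1 CPM they were 3657 and 3230 of 13175. Leaving out a library or pair gave 2606 to 3949 higher and 1375 to 2809 lower. CNOT1, the scaffold of CCR4-NOT to which ZFP36 proteins bind, had 635, 644 and 673 CPM in CR31B 2, 3 and 4 and 333, 301 and 325 CPM in DMSO 2, 3 and 4. It had 322 CPM in CR31B 1 and 637 CPM in DMSO 1. CNOT1 was thus about at the DMSO level in CR31B 1 and at the CR31B level in DMSO 1.

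The means of CNOT1 were 650.4 ± 20.1 and 319 ± 16.6 CPM (SD, n = 3), with a log2 fold change of 1.03 ± 0.056 (SE, adjusted p = 8.7e-07, edgeR). The annotation places genes of the opposite strand over 11.2% of its exons. CNOT10, a subunit of the module at the other end of the scaffold, followed with 0.59 ± 0.046 (SE, adjusted p = 6.58e-06, edgeR). CNOT4, CNOT11, CNOT3, CNOT6L and CNOT8 rose too, as did PAN3, PARN and NOCT, and their log2 fold changes lay between 0.23 for CNOT8 and 0.45 for CNOT4.

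The catalytic subunits did not move together. CNOT8, a partner of BTG1 and TOB1, rose by a log2 fold change of 0.23 ± 0.047 (SE, adjusted p = 0.00277, edgeR). Its paralogue CNOT7 had 296, 267 and 285 CPM in CR31B 2, 3 and 4 and 329, 298 and 320.02 CPM in DMSO 2, 3 and 4, with 317 and 293 CPM in replicate 1. The 3 CR31B values of CNOT7 lay just below the 3 DMSO values, and replicate 1 was reversed. Its log2 fold change was -0.16 ± 0.059 (SE, adjusted p = 0.0507, edgeR). CNOT7 was called lower in 13 of 19 alternatives, among them the replicate block (0.00367).

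CNOT6L, the catalytic partner subunit, had a log2 fold change of 0.32 but 0.10 with GC and length offsets (adjusted p = 0.168, edgeR), and CNOT6 had -0.007 (adjusted p = 0.936) but was called lower with those offsets (0.0468). All 8 libraries together gave 0 called genes of this list, and the median pair 1 difference over the 15 genes was -0.21.

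**Figure D4:**
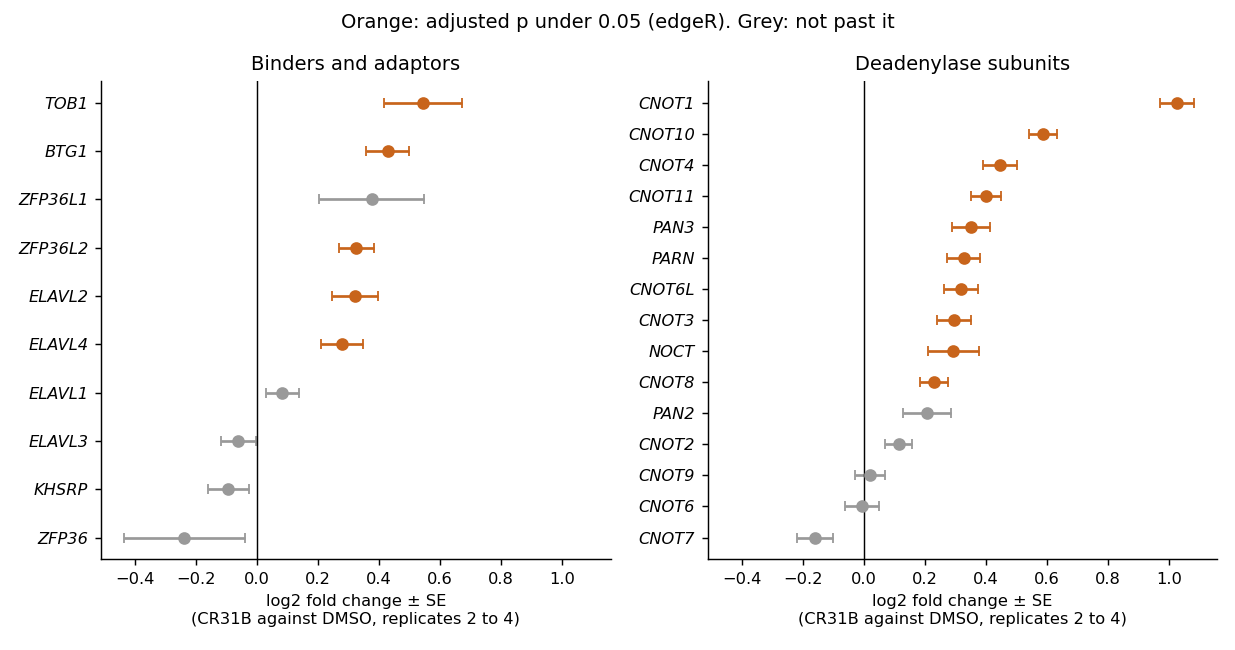
Log2 fold change ± SE of CR31B against DMSO in replicates 2 to 4 (horizontal axes) for the 10 mRNAs (left) and the 15 genes of the deadenylase list (right). Orange points have an adjusted p under 0.05 in edgeR's test and grey points do not. CNOT1 lies farthest to the right at 1.03, and TOB1 leads the left panel at 0.54.

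Of the other BTG and TOB genes, TOB2, the closest relative of TOB1, rose by a log2 fold change of 0.74 ± 0.064 (SE, adjusted p = 1.17e-05, edgeR). It had 103, 112 and 119 CPM in CR31B 2, 3 and 4, 62.9, 68.3 and 69.0 CPM in DMSO 2, 3 and 4, and 66.0 and 116 CPM in CR31B 1 and DMSO 1. The groups of replicates 2 to 4 were far apart and replicate 1 was reversed, as for TOB1. BTG2 and BTG3 were not called, and BTG4 was not tested for low counts. The list thus had 1 of 3 tested genes higher and 0 lower, against 1 lower with the replicate block.

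Other binders of AU-rich and U-rich elements moved in both directions, 8 of 17 higher and 4 lower, with a median log2 fold change of 0.12. SYNCRIP rose by a log2 fold change of 1.02 ± 0.053 (SE), and YBX1 (-0.34 ± 0.068) and FUBP1 (-0.22 ± 0.073), a relative of KHSRP, were named among those that fell, with adjusted p of 7.81e-07, 0.00245 and 0.0344 (edgeR). SYNCRIP and YBX1 are coating proteins of mRNA. The split turned with GC and length offsets (3 higher, 6 lower), upper quartile scaling (4 and 6) and total count scaling (5 and 6). It was 5 and 2 without pair 2, 7 and 2 without pair 3 and 4 and 1 without pair 4.

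For decapping and 5′ to 3′ decay, 9 of 19 genes were higher and 5 lower, with a median log2 fold change of 0.01. DDX6, the helicase that joins CCR4-NOT to decapping, rose by 0.68 ± 0.052 (SE) and its partner EIF4ENIF1 by 0.53 ± 0.046, while the LSM ring genes LSM3 (-0.35 ± 0.049) and LSM4 (-0.27 ± 0.053) fell, with adjusted p of 6.03e-06, 1.26e-05, 0.000283 and 0.00225 (edgeR). With upper quartile scaling 4 were higher and 5 lower, and with GC and length offsets 6 and 3. Without DMSO replicate 3 the counts were 5 and 5, and without pair 4 they were 3 and 2.

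Of 16 exosome genes, which degrade RNA from the 3′ end after deadenylation, 3 were higher and 3 lower, with a median of -0.03. With the replicate block these were 5 and 6, with upper quartile scaling 2 and 8, with total count scaling 2 and 7, with a filter at 1 CPM 3 and 6, and with GC and length offsets 1 and 4. Leaving out a library or pair gave 1 to 5 higher and 0 to 4 lower, with 3 and 1 without DMSO replicate 3 or DMSO replicate 4, 5 and 2 without CR31B replicate 3, 2 and 2 without CR31B replicate 4 or DMSO replicate 2 and 1 and 0 without pair 4. SKIC3 rose by a log2 fold change of 0.44 ± 0.048 (SE, adjusted p = 5.3e-05, edgeR), and EXOSC10 differed by -0.23 ± 0.075 (0.0283), with genes of the opposite strand over 39.3% of its exons. MTREX (0.28) and EXOSC5 (-0.26) did not pass with GC and length offsets (adjusted p = 0.276 and 0.211, edgeR).

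Among 29 mRNAs known for AU-rich elements, the possible targets of the 10 proteins, 22 were tested, and 9 were higher and 2 lower with CR31B, with a median log2 fold change of 0.21. JUN, an early response transcription factor, had 133, 181 and 182 CPM in CR31B 2, 3 and 4 and 38.3, 47.4 and 48.3 CPM in DMSO 2, 3 and 4, with 46.4 CPM in CR31B 1 and 168 CPM in DMSO 1. Its groups were widely separated in replicates 2 to 4 and exchanged in replicate 1, and the log2 fold change was 1.89 ± 0.12 (SE, adjusted p = 2.64e-06, edgeR).

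VEGFA, a secreted growth factor for blood vessels, rose by a log2 fold change of 1.36 ± 0.13 (SE, adjusted p = 2.17e-05, edgeR). PLAUR, the urokinase receptor, fell by 0.40 on the log2 scale (SE 0.098, adjusted p = 0.00853, edgeR). Of this list 1 gene was lower with GC and length offsets, without CR31B replicate 3, DMSO replicate 2 or DMSO replicate 4, and without pair 2 or pair 4. The cytokine genes TNF, IL6, CSF2, CXCL8 and CXCL1, with PTGS2 and GADD45B, had too few counts to be tested. All 6 lists had 0 genes called in the 8 libraries.

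Over all 12959 tested genes with a 3′ UTR, 8.88% held the nonamer, and 36.5% of these were higher and 16.3% lower with CR31B in replicates 2 to 4. Of the genes without it 28.1% were higher and 20% lower. The genes with the nonamer had longer 3′ UTRs, with a median of 2954 against 1032 bases. Among 3′ UTRs of 4000 bases or more, 40.5% with and 41.2% without the nonamer were higher. For 3′ UTRs from 2000 to under 4000 bases the shares were 39.4% and 36.6%, from 1000 to under 2000 bases 36.4% and 29.4%, from 500 to under 1000 bases 24.7% and 25.7%, and under 500 bases 8.93% (56 genes) and 19.0%. The difference thus varied with the length of the 3′ UTR, and no test was made. Of the 5 members whose chosen transcript held the nonamer, ZFP36L2 was called higher, and ZFP36, ZFP36L1, ELAVL1 and ELAVL3 were not called. This tally depends on the transcript chosen. ELAVL4, called higher, held the nonamer in 3 of its 7 coding transcripts. ELAVL1 held it in 1 of 4, ELAVL3 in 1 of 2, ZFP36 and ZFP36L1 in 2 of 3 each, and ZFP36L2 in its only 1.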

How the data were processed

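The authors deposited raw, unnormalised counts, in 1 table with an Ensembl gene identifier per row and a column for each of the 8 libraries. The submitters' processing notes name FastQC 0.11.7, STAR 2.7.2b, edgeR 3.36.0, limma 3.50.3 and GRCh38, without their roles. The counting tool and annotation are not given in the sources used here. The strand setting is not stated either, although the name of the deposited counts holds the word reverse. Per the labels' protocols, 250 ng of RNA was used with 15 PCR cycles and 75 sequencing cycles, and a small RNA kit is named although the molecule is polyadenylated RNA. With no molecular identifiers described, counts include PCR duplicates. Columns were matched to libraries by name. Of the identifiers, 58515 were in GENCODE release 29, which gave symbols, coordinates and 3′ UTRs (of the APPRIS principal transcript, the longest where several tied).

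The main test was that of edgeR 4.0.16 under R 4.3.3 (filterByExpr, TMM, quasi-likelihood, two-sided, Benjamini-Hochberg over all tested genes, threshold 0.05), in the 8 libraries with layout as a term, in the 6 single-end libraries, and for the interaction of treatment and layout. Levels are TMM-normalised CPM. For differences within a pair, log2 CPM was computed with 1 as the prior count. Shares were compared by exact permutation tests (SciPy 1.17.1). The scripts were tested on simulated data.

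Whether same-numbered libraries deviate together from their groups was checked by correlation. It was 0.206, 0.384 and 0.157 for replicates 2, 3 and 4 among the single-end libraries. All were over 0.1, and the numbers were taken as possible pairs, although these correlations are weak. Over the 8 libraries it was -0.527, -0.078, 0.159 and -0.108 for replicates 1 to 4. The main test held no replicate term, and the fit with the replicate block is given as an alternative. No library was a duplicate of another: the mean chi-square per gene, 1 for draws from 1 library, was at least 7.28. Each library of replicate 1 was closer to the other group than to its own.

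The 10 genes and the 6 lists (100 genes) were chosen with earlier results of these data known. From each list the text names up to 2 genes per direction with the largest change among those called in the single-end libraries, with a mean of at least 5 CPM and 1 sign in pairs 2 to 4. Of these, 1 gene is not reported here. Other genes that are named, most deadenylases included, were picked with their values known. The genes of like pattern are the 3 nearest to the called member with the largest and the smallest change. Alternatives were RLE, upper quartile and total count scaling, no filter or a filter at 1 CPM, DESeq2 1.42.0, limma voom (limma 3.58.1), the replicate block, GC and length offsets, and leaving out each library or pair. Those on the interaction and the lists, and the description of the nonamer over all genes, were added after seeing the data.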

Additional observations from a re-analysis of the deposited data

Results flagged for a closer look

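For 5 of the 10 genes the interaction of treatment and layout passed (edgeR, adjusted over all tested genes, of which 42.5% passed). It compares the effect of CR31B in pair 1 with that in pairs 2 to 4. Its spread came from the single-end libraries alone, as the paired-end layout has 1 library per group. The adjusted p thus hold no measure of the spread between paired-end libraries. These calls are also not independent of those in replicates 2 to 4, whose effect enters each term. The difference, pair 1 minus pairs 2 to 4, was -1.11 for TOB1, -0.746 for ZFP36L2, -0.734 for BTG1, -0.658 for ELAVL2 and -0.628 for ELAVL4 on the log2 scale, with adjusted p of 0.00602, 0.000522, 0.0019, 0.00607 and 0.00477. In each case the library labelled DMSO 1 was high and the library labelled CR31B 1 low. Both paired-end libraries are replicate 1 and each was closer to the other group than to its own, so the layout, the replicate and an exchange of the 2 labels cannot be told apart.

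By Dixon's test 0 of 24 groups of 4 values were marked. With 4 values this test marks only a value very far from the rest, and it does not show that the libraries of a group were alike.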

How the results depend on the processing

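With the 8 libraries, 0 genes and 0 of the 10 members were called under every scaling, filter, tool and offset tried and with the replicate block. Leaving out a library or pair gave 0 to 6920 genes and 0 to 5 members, the highest without CR31B replicate 1 (6920 genes, 5 members) and without DMSO replicate 1 (6906 genes, 5 members), and the single-end libraries alone gave 6901 genes and 5 members. The cause was not tested. In that fit the log2 fold change of ZFP36 went from -0.06 to between -0.24 and 0.10 on leaving out a library or pair (0.053 without pair 2, 0.050 without pair 3), that of ZFP36L1 to between -0.015 (without DMSO replicate 2) and 0.377, and that of ELAVL3 to between -0.062 and 0.025 (without DMSO replicate 2; 0.013 without pair 2). With upper quartile scaling ELAVL1 turned to -0.0027 in the 8 libraries, -0.013 in the single-end libraries and 0.035 in the interaction.

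In the single-end libraries leaving out a library or pair gave 3981 to 6727 genes, 2606 to 3949 higher, 1375 to 2809 lower, 3 to 6 members and 0 to 1 deadenylase lower, with the lowest gene and member counts without pair 4, which leaves 2 libraries per group. GC and length offsets gave 6713 genes and 3 members, and upper quartile scaling gave 4509 genes lower. Deadenylases called lower went from 0 to 1 with RLE, upper quartile and total count scaling, no filter, a filter at 1 CPM, DESeq2, limma voom and the replicate block, and to 2 with GC and length offsets, alone or with the block. The replicate block gave 8540 genes and 6 members, adding ZFP36L1. The direction of the 5 called members held in all 19 alternatives of the single-end libraries and in all 10 of the interaction. The share of calls that were higher was 51.2% with GC and length offsets and 49.1% with these and the block.

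The coefficient of variation from edgeR's common dispersion was 16.3% in the fit of 8 libraries with layout as a term and 7.46% with 6 libraries. In the interaction fit of the same 8 libraries it was 7.45%, so 16.3% does not measure biological variation alone. ZFP36 had 62 to 159 counts per library, and the part of depth in its error was not tested.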
